A study of Homo sapiens with 4 samples.

Results

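Keratins are the intermediate filament proteins of epithelial cells. A filament is built from type I keratins, which are small and acidic, paired with type II keratins, which are larger and neutral to basic, so that neither type assembles alone. Simple epithelia, among them the luminal layer of the breast, are known for KRT8 and KRT18 with KRT7 and KRT19. Stratified epithelia such as the epidermis use KRT5 and KRT14 in their basal layer and KRT1 and KRT10 above it, and hair and its root sheath have keratins of their own. The genes lie in clusters on chromosomes 12 and 17.

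The keratin genes were taken from RNA sequencing of 2 breast cancer cell lines. They were defined by symbol, as KRT followed by digits and at most 1 letter, and only protein-coding genes with an mRNA in the table were kept. This gave 54 of 18902 protein-coding genes, 26 on chromosome 12 and 28 on chromosome 17. RefSeq has 55 such genes, and KRT86, the remaining one, was paired with no listed transcript by the gene tables used. The KRT86 mRNA stands among 582 listed mRNAs that were paired with no symbol, and it was not analysed here. Each gene was represented by its mRNA with the highest mean count.

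MDA-MB-231 is the parental line, a human breast cancer line that grows in culture with a mesenchymal shape. MDA-MB-231-LM2 (LM2) is a subline of it that the labels describe as highly metastatic to the lung, and the labels name no treatment of either line. MDA-MB-231 was grown in Leibovitz L-15 medium in air, and LM2 in DMEM with added CO2, both with fetal bovine serum, so the culture conditions and the cell line cannot be told apart. The labels list 2 samples per line, but the deposited tables have a single column for each, and no source used here says if it pools those samples. The spread between cultures therefore could not be estimated, and differences are given without p-values.

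The parental column totals 130689252 counts and the LM2 column 128985870. Levels are compared between genes as RPKM, the count scaled to transcript length and column total. A ratio between the lines is the ratio of the counts divided by that of the column totals. Its 95% interval is exact (Clopper-Pearson) and covers counting error only. A gene was counted as higher or lower where it passed 2-fold with 50 counts or more in mean.

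The label of breast cancer cells was set against marker genes. The 6 mesenchymal markers all passed 50 counts in mean, with a summed RPKM of 785 in the parental line and 1126 in LM2. The higher sum in LM2 was that of vimentin (VIM): FN1, CAV1, AXL and CD44 were lower in LM2, ZEB1 was 1.30-fold higher, and the median log2 ratio of the list was -0.34. Of 6 epithelial markers 3 passed, and CDH1 (E-cadherin), which defines epithelial junctions, had 13 counts in the parental line and 0 in LM2. Of 5 luminal breast markers 2 passed, and the receptors ESR1 and PGR had at most 8 counts in either line. Of 4 leukocyte markers 1 passed, CD14 with 199 and 114 counts, and the T cell marker CD3E was at 0 in both lines. Of 4 endothelial markers 2 passed, PECAM1 with 48 and 343 counts and KDR with 1138 and 495, and the defining marker CDH5 was at 0 in both. In bulk RNA of this kind, fewer cells that express a gene and less of its RNA per cell cannot be told apart.

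Likeness between genes bears on how far KRT81, the keratin that was higher in LM2, can be read. KRT81 and KRT86 are hair keratins of type II, and their coding sequences were aligned from GENCODE 29. Over 1515 coding bases in KRT81 and 1458 in KRT86, 89.6% of aligned positions were identical, and the longest identical run had 605 bases. Reads from that run cannot be assigned to either gene by sequence, so the KRT81 count may hold reads of KRT86.

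Most keratin genes were at or near 0 in both lines. Of the 54, 9 had a mean of at least 50 counts (16.7%), against 66.0% of all protein-coding genes. The 9 were KRT8, KRT18, KRT7, KRT19 and KRT80, which belong to simple epithelia, KRT10 and KRT15 of stratified epithelia, and KRT81 and KRT34 of hair. In 22 genes no count was listed in either line, and 23 had a few.

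**Figure D1:**
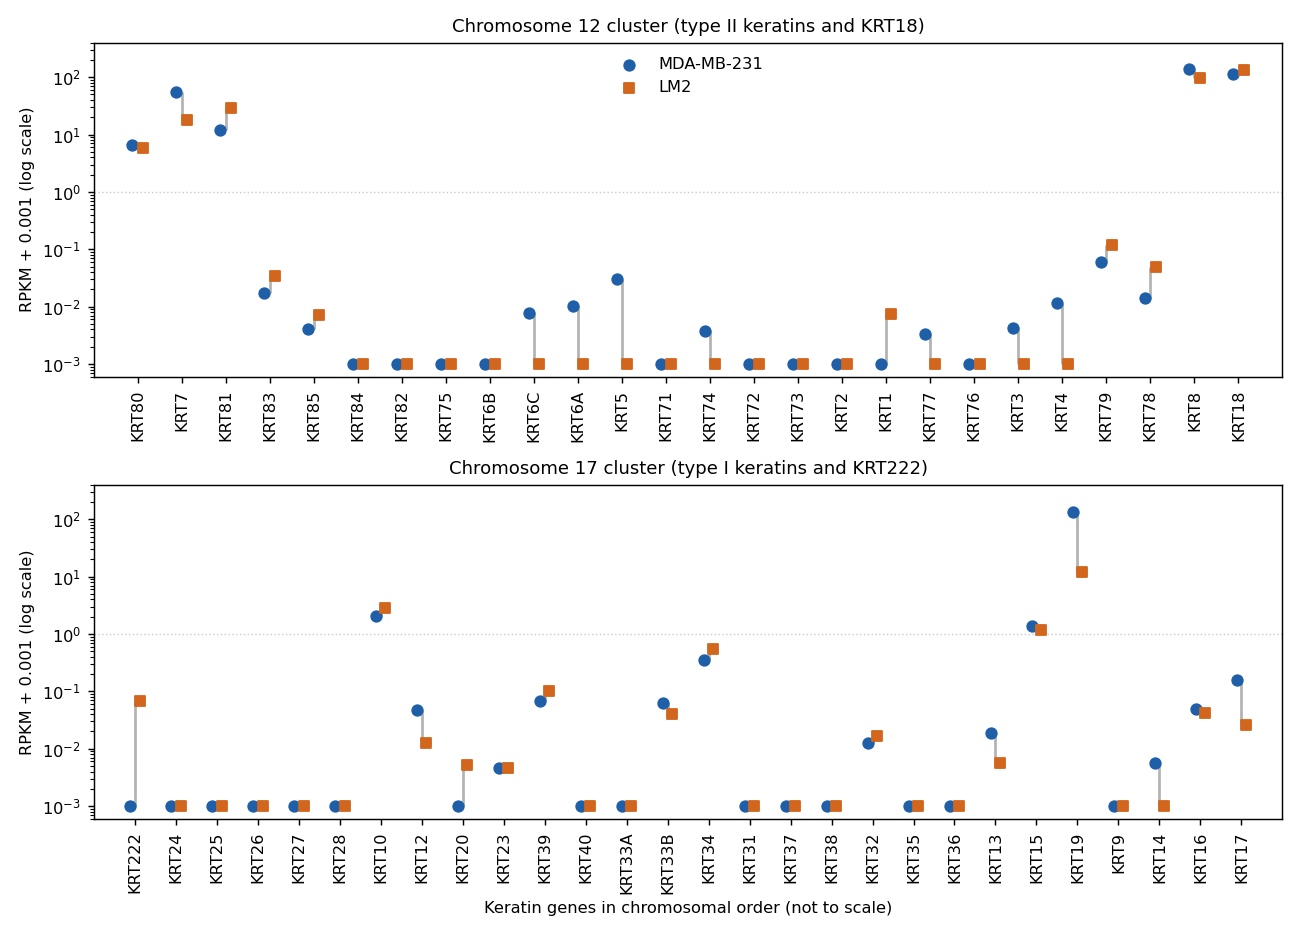
RPKM plus 0.001 (log scale) of the 54 keratin genes in each line, in their order along chromosomes 12 and 17 (GRCh38, not to scale). Points at the bottom of the axis are genes listed at 0. On chromosome 12 the well-expressed genes KRT80, KRT7 and KRT81 stand at one end and KRT8 and KRT18 at the other, and on chromosome 17 only KRT10, KRT15 and KRT19 pass an RPKM of 1.

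Of the 9 genes, 2 were over 2-fold lower in LM2, KRT19 and KRT7, and 1 was over 2-fold higher, KRT81. Over all 12470 protein-coding genes at the same minimum, 6.78% were lower and 4.68% higher. The other 6 keratin genes were within 2-fold. The median log2 ratio of the 9 genes was -0.19, beside 0.0035 over all genes, and their median absolute log2 ratio was 0.50, beside 0.31. In 4 genes the counting interval lay wholly below equality, in 4 wholly above, and in KRT15 it held equality.

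**Figure D2:**
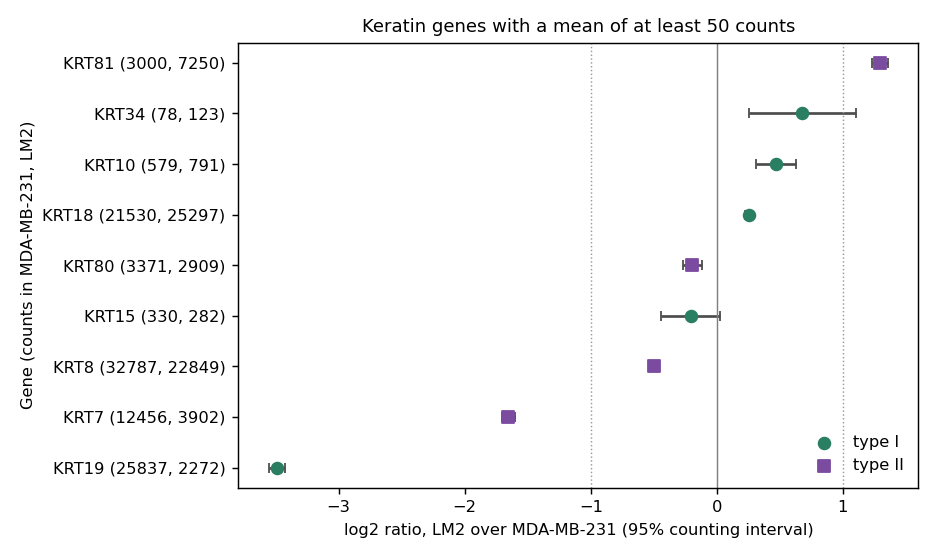
The log2 ratio of LM2 over MDA-MB-231 for the 9 keratin genes that passed 50 counts in mean, with 95% counting intervals as bars and 2-fold as dotted lines. KRT19 (-3.49) and KRT7 (-1.66) lie below 2-fold and KRT81 (1.29) above it, and each type has genes on both sides of 0.

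KRT18, the type I keratin of simple epithelia, had 21530 counts in the parental line and 25297 in LM2, an RPKM of 112 and 134. It was 1.19-fold higher in LM2 (95% interval 1.17 to 1.21). KRT8, its type II partner, went the other way, from 32787 to 22849 counts (RPKM 140 and 98.6), 1.42-fold lower (1.39 to 1.44). Both stayed among the most abundant transcripts, at percentiles of 99.1 and 99.2 for KRT18 and 99.3 and 98.9 for KRT8 among protein-coding genes. The order of the pair was thus exchanged. The RPKM of KRT8 over that of KRT18 was 1.24 (1.22 to 1.27) in the parental line and 0.738 (0.725 to 0.751) in LM2.

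KRT8 and KRT18 are neighbours, and both have many copies in the genome that are no longer functional. Of all 50-base stretches of the KRT8 mRNA, 36.9% also occur in a keratin pseudogene, and 31.8% of those of KRT18 do. In GENCODE 29, KRT8 transcripts with extended ends run across KRT18 on the opposite strand and cover 375 bases, 24.01%, of the KRT18 mRNA. No source used here gives the strand setting of the counting, so reads of these bases cannot be told apart between the genes. A listed non-coding KRT8 transcript of this extended kind had 35443 counts in the parental line and 26468 in LM2. It exceeded the KRT8 mRNA by 2656 counts in the parental line and 3619 in LM2, and 173 of its bases lie over exons of KRT18. That surplus was 1.38-fold higher in LM2, and the source of its reads was not tested. In GENCODE 29 the exons of the KRT8 mRNA itself lie over no exon of another gene.

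KRT19, a type I keratin without the usual tail domain that is found in ducts and glands, changed most. It had 25837 counts in the parental line and 2272 in LM2, an RPKM of 134 and 11.97, and was 11.2-fold lower in LM2 (10.8 to 11.7). Its level among protein-coding genes moved from percentile 99.3 to 88.2. In the parental line it stood above KRT18, at 1.20 times the RPKM (1.18 to 1.22), and in LM2 it stood at 0.0896 times (0.0858 to 0.0935). Of its 50-base stretches 1.79% occur in another gene, a keratin pseudogene.

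KRT7, a type II keratin of simple glandular epithelia, had 12456 counts in the parental line and 3902 in LM2 (RPKM 56.0 and 17.8). It was 3.15-fold lower in LM2 (3.04 to 3.27). Relative to KRT8, the other type II keratin of these epithelia, its RPKM went from 0.401 (0.393 to 0.409) to 0.180 (0.174 to 0.186). An antisense transcript, KRT7-AS, covers 221 bases, 12.6%, of the KRT7 exons on the other strand, and its own 2909 and 966 counts changed in the same direction. Without a strand setting, reads of the shared bases cannot be told apart.

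KRT80, a type II keratin placed near desmosomes in many epithelia, had 3371 and 2909 counts (RPKM 6.62 and 5.79). It was 1.14-fold lower (1.09 to 1.20), a small difference beside that of KRT7, which lies next to it in the cluster.

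KRT81, a hair cortex keratin, had the largest increase among the 9 genes that passed 50 counts. It had 3000 counts in the parental line and 7250 in LM2, an RPKM of 12.02 and 29.4, and was 2.45-fold higher in LM2 (2.35 to 2.56). Its percentile among protein-coding genes rose from 88.3 to 95.7. In the parental line it had 0.215 times the RPKM of KRT7 (0.206 to 0.223) and in LM2 1.66 times (1.59 to 1.72), so this hair keratin came to exceed a keratin of simple epithelia. Of its 50-base stretches 44.6% are shared with other genes, 38.4% with KRT86. KRT83, the next along the cluster of the hair keratins analysed here, had 4 and 8 counts (chosen after its values were seen). KRT86 was not analysed and is absent from this gene order, so the KRT83 counts say nothing about its level.

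KRT34, a type I hair keratin, had 78 and 123 counts (RPKM 0.348 and 0.557) and was 1.60-fold higher (1.19 to 2.15). Of its stretches 11.4% are shared, most of them with KRT33B. Of the 16 hair keratins 9 were listed at 0 in both lines, and the summed RPKM of the group, 12.5 and 30.2, was almost wholly that of KRT81. Type I keratins of hair were thus low in both lines, and KRT18 was the most abundant type I keratin in LM2.

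Keratins of stratified epithelia were scarce. KRT10, the type I keratin of the upper epidermal layers, had 579 and 791 counts (RPKM 2.07 and 2.87) and was 1.38-fold higher (1.24 to 1.54). KRT15, a type I keratin of basal cells, had 330 and 282 counts (RPKM 1.37 and 1.19), a 1.15-fold lower value whose interval, 0.982 to 1.36, held no change. Their type II counterparts were nearly absent: KRT1 had 0 and 2 counts and KRT5 had 9 and 0. KRT14, the usual basal partner of KRT5, had 1 and 0 (these 3 genes were chosen outside the rule for naming genes). Of the 21 stratified keratins 5 were at 0 in both lines, and their summed RPKM was 3.85 in the parental line and 4.31 in LM2.

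Below a mean of 50 counts, 8 genes had at least 10 counts in a line. KRT17, a keratin of basal and injured epithelium, had 32 and 5 counts and was 6.32-fold lower in LM2, with a wide interval (2.44 to 20.8). KRT16, which is also induced by injury, had 11 and 9 counts. KRT12, the keratin of the cornea, had 12 and 3. KRT79 had 16 and 31 counts and was 1.96-fold higher (1.04 to 3.84), and KRT78 had 3 and 11. Of the hair keratins, KRT33B had 13 and 8 counts and KRT39 had 15 and 22. KRT222, a keratin-like gene on chromosome 17, had 0 and 15 counts. Types were assigned here by gene number, which left KRT222 out of both. It was at least 5.07-fold higher in LM2 when only the 0 is set to a floor of 3 counts, and with the counting error of both values the interval starts at 3.63. The 15 other genes with a count had at most 9 in either line. Of the 9 inner root sheath keratins 8 were at 0 in both lines, which allows up to 3 counts in each.

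The changes of single genes altered the make-up of each type. Type I keratins summed to an RPKM of 250.9 in the parental line and 150.5 in LM2, 1.67-fold lower. KRT19 made up 53.6% of the type I sum in the parental line and 7.96% in LM2, while KRT18 went from 44.8% to 88.8%. Type II keratins summed to 214.5 and 151.8, 1.41-fold lower. The share of KRT8 in the type II sum was 65.1% and 65.0%, KRT7 went from 26.1% to 11.7%, and KRT81 from 5.60% to 19.4%.

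**Figure D3:**
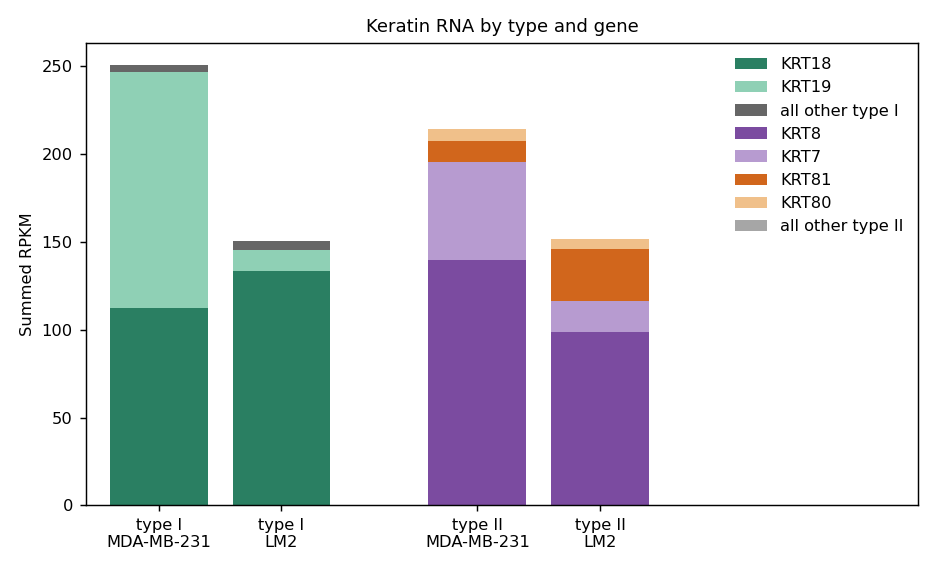
Summed RPKM of type I and type II keratins in each line, with the genes that make up each sum stacked from 0. The type I sum falls from 250.9 to 150.5 with the loss of the KRT19 part, and in the type II sum the KRT7 part shrinks as the KRT81 part grows.

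Both types together summed to 465.4 in the parental line and 302.4 in LM2, a log2 ratio of -0.62, or 1.54-fold lower. In counts the keratins took 0.0766% of the MDA-MB-231 total and 0.0510% of the LM2 total. Without KRT19 the log2 ratio was -0.19. The RPKM of type I over that of type II was 1.17 in the parental line and 0.991 in LM2, with the type II keratin KRT86 left out. This ratio turned on KRT19 too, and without it rose from 0.543 to 0.912, against a fall with it. Without KRT81 it was 1.24 and 1.23. Removing KRT19 and removing KRT81 were both chosen after the data were seen.

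The position of the genes was set beside these values. Among the 30 protein-coding genes nearest to the chromosome 12 keratins on either side that passed 50 counts, the median log2 ratio was 0.52, with 3 over 2-fold higher and 0 lower. KRT7 (-1.66) lay below the range of these neighbours, -0.57 to 1.40, and KRT8 (-0.50), KRT80 (-0.19), KRT18 (0.25) and KRT81 (1.29) lay within it. Among the 30 that flank the keratins on chromosome 17 the median was 0.01, with 3 over 2-fold higher and 2 lower, and the range, -3.50 to 7.23, held KRT19 (-3.49) and the other keratins of that cluster that passed. The part of the chromosomal neighbourhood in the keratin values was not tested.

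Some epithelial markers moved in the direction of KRT19 and KRT7 and others did not. The RPKM of the 6 markers summed to 45.6 in the parental line and 3.77 in LM2, and 2 of the 3 that passed were over 2-fold lower. CLDN4, a claudin of tight junctions, had 8427 and 75 counts, and CLDN7 had 2243 and 457. EPCAM, an epithelial adhesion protein, had 361 and 355 counts. CDH1 (13 counts in the parental line) and RAB25 (1 count) were at 0 in LM2. ESRP1, a splicing factor of epithelial cells, went the other way with 4 and 42 counts, 10.6-fold higher (3.86 to 40.8), and was named after its values were seen. VIM, the type III filament protein of mesenchymal cells, went from 153536 to 262027 counts and was 1.73-fold higher (1.72 to 1.74), unlike FN1, CAV1, AXL and CD44 of the same marker list, which were 1.47-fold, 1.48-fold, 1.33-fold and 1.21-fold lower. VIM had an RPKM of 550 in the parental line and 951 in LM2, above the summed keratins in both lines. The part of these markers in the keratin values was not tested.

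Genes that work with keratin filaments were examined as lists. Of 15 other intermediate filament genes 8 passed 50 counts and none passed 2-fold, with a median log2 ratio of 0.12. Beside VIM, GFAP, the filament protein of glia, was 1.95-fold lower (385 and 195 counts), BFSP1 of the lens 1.42-fold lower, and the nuclear lamin LMNB1 1.32-fold higher. Keratin filaments end at desmosomes, and of 15 desmosome and plakin genes 9 passed, 1 of them over 2-fold lower, with a median of -0.41. JUP (plakoglobin), which links desmosomal cadherins to the plaque, had 1387 and 620 counts and was 2.21-fold lower (2.01 to 2.43). EVPL (envoplakin) was 1.99-fold lower and DSP (desmoplakin), which binds the keratins themselves, 1.80-fold lower. DSC2, a desmosomal cadherin, was 1.70-fold higher.

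Hemidesmosomes anchor keratins to the basement membrane. All 8 of their genes passed, none beyond 2-fold, with a median of -0.04. LAMB3, a laminin chain outside the cell, was 1.38-fold higher, whereas DST, the plakin that holds the keratins, and the integrin ITGB4 were 1.496-fold and 1.47-fold lower. Of 6 keratin-binding proteins 5 passed and 1 was over 2-fold lower. That gene was FAM83H, which organizes the keratin network, with 413 counts in the parental line and 9 in LM2, 45.3-fold lower (23.6 to 99.8). PNN (pinin) was 1.46-fold higher, TCHP (trichoplein) 1.44-fold lower and SFN (stratifin) 1.13-fold lower, and the median of the list was -0.18.

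Of 12 cornified envelope genes, which seal cells of the epidermis, 3 passed, none beyond 2-fold, with a median of -0.01. FLG (filaggrin), which bundles keratins in the epidermis, had 3251 and 1772 counts and was 1.81-fold lower. TGM1, a cross-linking enzyme, was 1.36-fold higher with an interval that held no change (0.956 to 1.93), and HRNR was within its counting error (1.01-fold, 0.921 to 1.10). Involucrin (IVL) and SPRR1B, markers of differentiated keratinocytes, were at 0 in both lines.

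Of 13 epithelial transcription factors 7 passed, 2 over 2-fold lower and 1 over 2-fold higher, with a median of -0.35. EHF, an ETS factor of epithelial cells, had 5672 counts in the parental line and 135 in LM2, 41.5-fold lower (35.0 to 49.6). ELF3, an ETS factor of the same family, had 149 and 33 counts and was 4.46-fold lower (3.04 to 6.71). TFAP2C (AP-2 gamma) had 479 and 1262 counts and was 2.67-fold higher (2.40 to 2.97), and KLF4 was 1.96-fold higher. These values stand beside those of the keratins, and a relation between them was not tested.

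**Figure D4:**
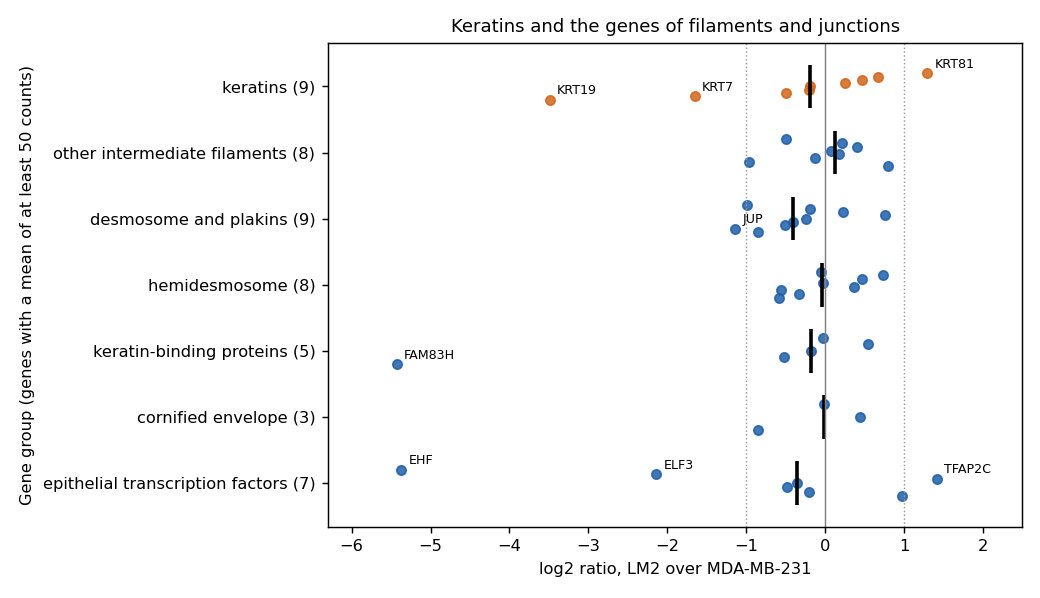
The log2 ratio of LM2 over MDA-MB-231 for keratin genes (orange) and for 6 lists of related genes (blue), 1 point per gene that passed 50 counts in mean, the median of each list as a black bar and 2-fold as dotted lines. Genes past 2-fold are named, and the medians lie between -0.41 and 0.12, with FAM83H, EHF and KRT19 farthest to the left.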

How the data were processed

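RNA of MDA-MB-231 and LM2 cells was sequenced by the authors, and per the submitters' processing notes bcl2fastq and TopHat2 (version 2.0.13) were used with hg19 (GRCh37). No source used here names the counting program, its strand setting or the annotation. Read counts of 65423 transcripts were deposited by the authors as whole numbers and entered as they are. The RPKM they deposited equals count over listed length and column total to a relative difference of at most 4.98e-06.

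Symbols were paired through RefSeq (GRCh38.p14) and GENCODE 29, for 34209 of 34791 NM_ transcripts. Transcript sequences for the comparisons and the gene order come from GRCh38, and no coordinates were converted. To each count 0.5 was added before log2. The tests named for replicated files (edgeR) need several columns per line and could not be run. Intervals were tested on simulated data. The simulated counts held counting error only, so they could not test the spread between cultures.

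The text names each keratin gene with a mean of at least 50 counts, those with 10 counts in a line, and up to 4 members of a list by ratio. Defining markers of cell types are also named. KRT7-AS, CD44, ZEB1 and the non-coding KRT8 transcript were chosen after their values were seen. Some items are not reported here. The members and lists were chosen with earlier results of these data known.

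Alternatives were other scalings, minimums, pseudocounts and representative transcripts. Python 3.11.15, numpy 2.4.6, pandas 2.3.3, scipy 1.17.1, matplotlib 3.10.9, R 4.3.3, edgeR 4.0.16 and DESeq2 1.42.0 were used, the last pair for scaling factors only.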

Additional observations from a re-analysis of the deposited data

How the results depend on the processing

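No paired analysis was possible because the tables hold 1 column per cell line, and for the same reason leaving out replicates and the count tests of edgeR and DESeq2 could not be fitted. For the 9 named genes, 54 values under 6 settings of scaling and transcript kept their sign and their side of 2-fold, with a largest shift of 0.0997 on the log2 scale (KRT8, non-coding models allowed). TMM, upper-quartile and DESeq2 factors each shifted all ratios alike, by at most 0.014. KRT7, KRT10, KRT15, KRT19, KRT34 and KRT81 have only 1 listed transcript each, so the settings of transcript could not change their values and were no test of them. A minimum mean of 10 counts left 14 keratin genes. With no minimum 32 remained, 13 over 2-fold lower and 5 higher, and all but 3 of these had a mean under 50 counts. The log2 ratio of summed RPKM was -1.07 without KRT18, -0.19 without KRT19, -0.73 without KRT81 and -0.59 with non-coding models. The ratio of type I over type II, in MDA-MB-231 and LM2, was 1.24 and 1.05 with the longest mRNA, 1.25 and 1.01 with non-coding models, 0.646 and 0.111 without KRT18, 0.543 and 0.912 without KRT19, and 1.24 and 1.23 without KRT81. The settings with non-coding models and without KRT19 or KRT81 were chosen after the data were seen. Spread between cultures is unknown, so no interval here covers it.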

Other observations

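Other genes with keratin in their name are not keratins or are not translated. Of 9 listed keratin pseudogenes 4 had a count, at most 13, and their counts summed to 7 in the parental line and 25 in LM2. KRT17P5 had 0 and 13 counts, a ratio with a lower limit of 3.09, while KRT17 itself had 32 and 5. Of 93 keratin-associated protein genes, which encode the matrix of hair, 15 had a count, and their counts summed to 104 and 71. KRTAP2-3 held most of these, with 85 and 49 counts and a ratio of 0.584 (0.402 to 0.840). KRT17P5 and KRTAP2-3 were chosen after their values were seen.

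Promoters of 34 keratin genes were found in the RefSeq table (GRCh38.p14). Of the 9 genes that passed 50 counts in mean, only 3 were among them, KRT8, KRT10 and KRT34. The shares below therefore describe mostly keratins at or near 0, and they do not cover KRT19, KRT7 or KRT81. In the 250 bases before the start, on either strand, an AP-1 motif (TGACTCA) was in 0 of the 34 and in 4.20% of all 35116 promoters. A GC box (GGGCGG) was in 4 of the 34, 11.8%, against 42.6% of all, and an E-box (CACCTG) in 6, 17.6%, against 17.5%. A match is a description of letters and not a binding site.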
